A study of Ambystoma mexicanum with 8 samples.

Results

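The genes described here encode the B cell antigen receptor and the proteins that give a B cell its identity, in limbs of the axolotl Ambystoma mexicanum. They are CD79B and IGHM from the receptor, BLK and BLNK from its signalling cascade, and the transcription factors PAX5, EBF1 and SPIB. They were found by symbol among the gene models of the deposited count tables, where the symbol is the last name before the model number. The 7 symbols are carried by 8 of 61014 models, since BLNK has 2: AMEX60DD102052658.5, called here the main BLNK model, and AMEX60DD201052660.1, called the minor BLNK model. The other models are CD79B AMEX60DD301009638.2, PAX5 AMEX60DD201043936.1, EBF1 AMEX60DDU001006586.11, BLK AMEX60DDU001004165.1, SPIB AMEX60DD201016289.2 and IGHM AMEX60DD301009352.3, which the files name IGX-IGHM.

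Single cells were dissociated from limbs, sorted alive at a 2C DNA content and sequenced by a droplet method that counts the 3′ end of each captured RNA molecule as 1 UMI. The sort protocol calls the 2C cells non-dividing, whereas the series text calls them dividing. The intact group held 3 samples, numbered 1, 2 and 4, of homeostatic limbs; the contra group held 4 samples, numbered 1, 2, 4 and 5, of limbs described as systemically activated and dated to 14 days after amputation. All samples were wild-type, with no transgene or drug named, and 1 further labelled intact sample was not analysed here. The labels do not say whether samples came from separate animals, so p-values measure only the spread between these samples.

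In vertebrates, the B cell receptor is a membrane immunoglobulin whose heavy chain of the M class is encoded by IGHM, held together with a signalling pair to which CD79B belongs. When antigen binds, Src family kinases such as BLK and LYN and the kinase SYK act on the receptor tails, and the adaptor BLNK links SYK to BTK and phospholipase C gamma 2. EBF1 and PAX5 commit precursors to the B lineage in mouse, and the Ets factor SPIB acts with the related factor PU.1 in B cell responses. When a B cell becomes a plasma cell, PAX5 is switched off and immunoglobulin is made in bulk.

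After removal of 426 doublet calls, 34587 of 35013 cells remained, with 96617257 to 131485269 UMIs per sample and a median of 15852 to 23254 UMIs per cell by sample. Cells with at least 3 CD79B UMIs were taken as B cells, which gave 1963 cells (5.68% of those kept). The other cells were placed by UMIs of their own markers, as 8941 T cells, 437 GZMA-high cells, 429 RTBDN-positive leukocytes, 339 macrophages, 117 neutrophils, 7131 epidermal cells and 13504 erythroid cells. A further 957 cells fell in no class, and 705 cells passed more than 1 limit and were set aside as mixed. Across libraries, 236 cells (0.674%) shared a barcode with a cell of another library, 10 of them B cells. Of the connective and vascular cells of a limb, 13 cells were placed as fibroblasts and 0 as endothelial cells. By these limits the fraction read here was mostly blood and epidermis.

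The B cell label was checked against member genes that did not choose the cells. Of the 1963 B cells, 96.7% held UMIs of at least 2 of PAX5, EBF1, SPIB and BLNK (either model), and 78.7% held at least 3 of them. In T cells, whose median depth of 12268 UMIs was close to the 12396 of B cells, the same shares were 0.0895% and 0%. Macrophages reached 44.2% for at least 2 of the 4 genes and 0% for at least 3, and epidermal cells reached 3.98% and 0.112%. Another class's marker limit was also passed by 87 B cells (4.43%), of which 34 passed that of T cells. No gene model carries the symbol CD79A or MS4A1, so those defining genes could not be read.

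**Figure D1:**
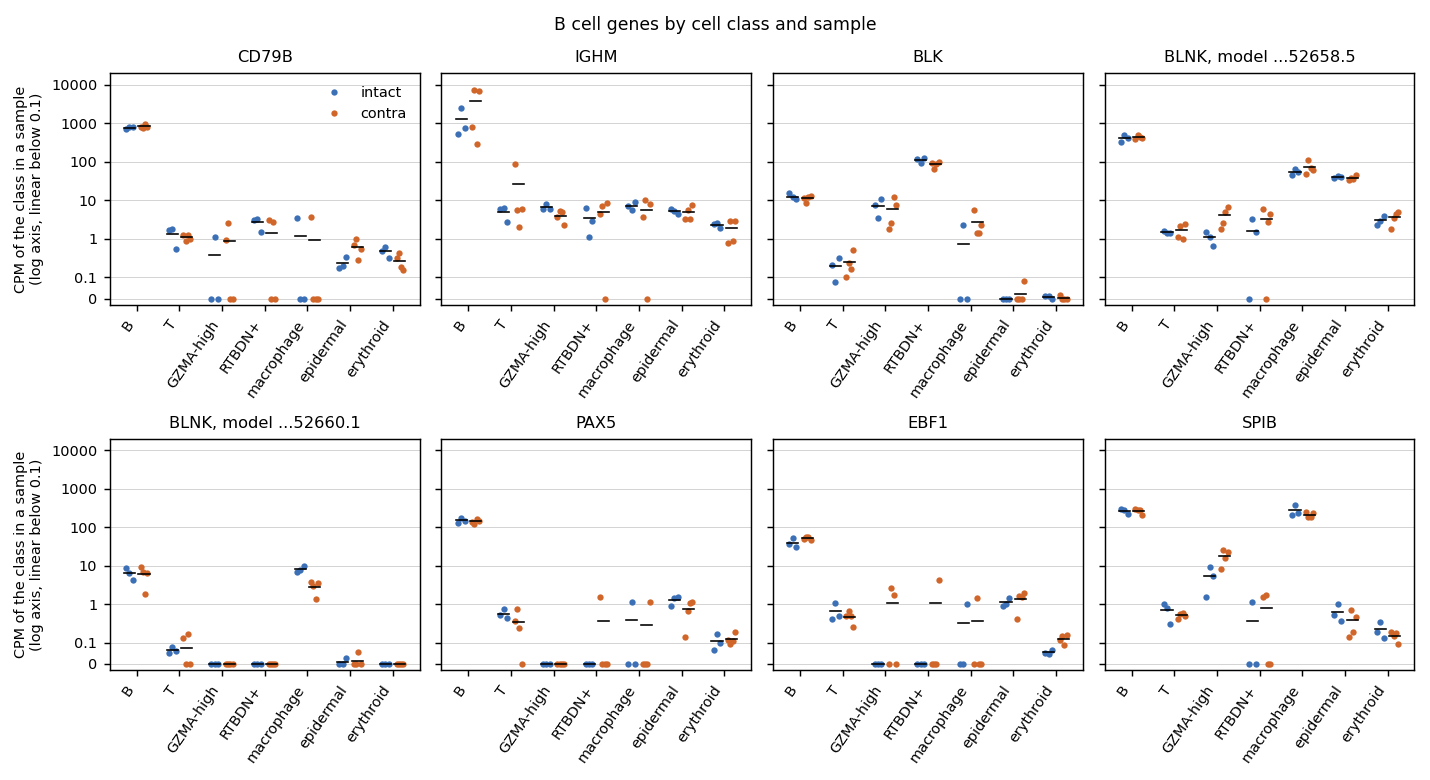
Level of each member model in counts per 1000000 UMIs (CPM, log axis that is linear below 0.1) in 7 cell classes, with 1 point per sample, coloured by group, and a line at each group's mean; CD79B chose the B cells. PAX5 and EBF1 stand apart in B cells, whereas BLK is highest in RTBDN-positive leukocytes and SPIB is as high in macrophages as in B cells within the spread of the samples.

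CD79B, the signalling subunit that defined the class, had 97.4% of its 22229 UMIs in B cells, a share that the rule itself sets. Its level in B cells was 716, 818 and 783 CPM in intact 1, 2 and 4, and 812, 776, 947 and 782 CPM in contra 1, 2, 4 and 5. In the other marker-defined classes its pooled level lay between 0 CPM in neutrophils and 2.01 CPM in RTBDN-positive leukocytes, with 1.28 CPM in T cells. The 957 cells of no class, which include cells just below the limit, held 15.5 CPM. A further 67 cells held 2 CD79B UMIs and fell just outside the limit; PAX5 was detected in 43.3% and the main BLNK model in 74.6% of them. Among the 99 cells with 3 UMIs, just inside, those shares were 48.5% and 89.9%. With 1 CD79B UMI (446 cells) they dropped to 5.16% and 22.9%, and with none to 0.903% and 17.4%.

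**Figure D2:**
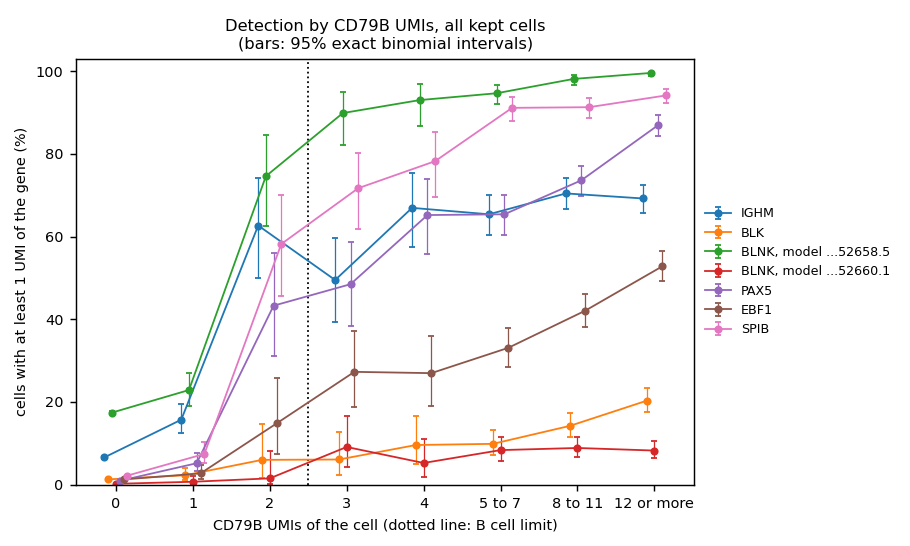
Percent of cells with at least 1 UMI of each member other than CD79B, by the number of CD79B UMIs in the cell, over all kept cells, with exact binomial 95% intervals as bars and the B cell limit as a dotted line. The shares step up between 1 and 2 CD79B UMIs for IGHM, PAX5, SPIB and the main BLNK model.

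PAX5, the factor that keeps B cells committed, was the most restricted of the factors. It had 91.0% of its 4393 UMIs in B cells and was detected in 75.3% of them. Its level was 127, 173 and 146 CPM in B cells of the intact samples and 139, 122, 159 and 143 CPM in those of contra 1, 2, 4 and 5. The groups overlapped, and every sample stood far above the pooled 1.09 CPM of the epidermis and 0.474 CPM of T cells. Cells of no class held 9.36 CPM, from 97 UMIs, and the 34 mast cells held 1 UMI.

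EBF1, which acts upstream of PAX5 in mouse, was measured more sparsely, with 1246 UMIs in B cells and at least 1 UMI in 42.7% of them. It stood at 36.4, 50.9 and 30.5 CPM in intact 1, 2 and 4 and at 48.0, 56.8, 54.0 and 47.4 CPM in contra 1, 2, 4 and 5. Intact 1 and 4 were the lowest samples, and intact 2 lay within the contra range. The pooled level was 1.57 CPM in the epidermis, 0.594 CPM in T cells and 3.19 CPM in cells of no class, and fibroblasts held 1 UMI.

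SPIB was shared with myeloid cells. Its pooled level was 276 CPM in B cells, 240 CPM in macrophages and 544 CPM in neutrophils, and UMIs were found in 90.6%, 70.8% and 87.2% of those cells. Only contra 4 and contra 5 held at least 20 neutrophils, 48 and 39 of the 117, with SPIB at 445 to 542 CPM. By sample SPIB was 289, 283 and 215 CPM in B cells of the intact group, and 291, 280, 280 and 202 CPM in B cells of contra 1, 2, 4 and 5. In macrophages it was 205, 379 and 231 CPM in the intact samples and 242, 185, 177 and 228 CPM in the contra samples. Both cell classes overlapped across samples, so these neighbours in the order of levels did not separate. GZMA-high cells held 10.1 CPM, erythroid cells 0.201 CPM and T cells 0.602 CPM.

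BLNK, the adaptor between SYK and its targets, was not confined to B cells either. The main model had 55.3% of its 20770 UMIs there, at 336, 487 and 414 CPM in intact 1, 2 and 4 and 392, 507, 454 and 405 CPM in contra 1, 2, 4 and 5. Epidermal cells held 37.2, 43.4 and 40.6 CPM in the intact samples and 32.8, 38.7, 36.8 and 46.1 CPM in the contra samples. Macrophages held 46.6, 63.9 and 53.2 CPM in the intact samples and 47.3, 109, 68.8 and 61.2 CPM in the contra samples. All B cell values exceeded all values of both classes; the macrophage values were all above the epidermal ones.

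At least 1 UMI of the main BLNK model was present in 54.4% of epidermal cells and 54.0% of macrophages, against 1.92% of T cells and 7.56% of erythroid cells. The median depth was 21938 UMIs in epidermal cells, 14091 in macrophages and 27754 in erythroid cells. With each cell thinned to 3000 UMIs, the shares were 11.8% in epidermal cells, 18.6% in macrophages, 0.492% in T cells, 0.718% in erythroid cells and 69.7% in B cells. The minor BLNK model was rare, with 194 UMIs in B cells (7.10 CPM) and 29 in macrophages (5.44 CPM). Epidermal cells held 0.0185 CPM of it, so that the pair of models differed in where they were read. RefSeq lists 1 BLNK gene for the axolotl, and whether the models are parts of that gene cannot be told apart here.

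BLK, a Src family kinase of the receptor cascade, was highest outside B cells. RTBDN-positive leukocytes held 117, 90.5 and 122 CPM in the intact samples and 94.0, 63.9, 89.8 and 97.0 CPM in contra 1, 2, 4 and 5. B cells held 15.2, 11.8 and 10.5 CPM in the intact samples and 11.3, 8.31, 12.5 and 13.1 CPM in the contra samples. Every RTBDN-positive value exceeded every B cell value, and UMIs were found in 54.8% of those leukocytes and in 15.0% of B cells. GZMA-high cells held a pooled 7.82 CPM, ranging from 1.84 to 11.8 CPM across samples, which overlapped B cells; T cells held 0.185 CPM. Src family kinases are similar in sequence, so the counting could split reads between paralogs and the BLK values are uncertain to that extent.

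The heavy chain model IGX-IGHM, called IGHM here, had 80349 UMIs, of which 66.8% fell in B cells. RefSeq lists 0 genes with the symbol IGHM for the axolotl. Which heavy chain class or classes the model reads cannot be told here, so a cell without its UMIs may hold another heavy chain. By sample its level in B cells was 512, 2556 and 753 CPM in intact 1, 2 and 4, and 781, 7282, 298 and 6806 CPM in contra 1, 2, 4 and 5. Intact 2, contra 2 and contra 5 stood far above the other samples, and the groups overlapped. This spread came from few cells: the 10 B cells with the most IGHM held 67.1% of all IGHM UMIs in B cells, whereas the same share for CD79B was 1.82%. The median B cell held 2 IGHM UMIs, and 634 B cells (32.3%) held none.

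Over all kept cells, 31 cells held at least 500 IGHM UMIs, and these IGHM-high cells carried 87.9% of the transcript. Between 671 and 6862 IGHM molecules were read in each, a median of 11.1% of the cell's UMIs, and no cell had 200 to 499. The limit was set after these counts had been seen. Contra samples held 20 of them and intact samples 11, from 2 to 7 per sample. The B cell limit was passed by 19, while 11 had too little CD79B for it and fell in no class, and 1 was placed with T cells. Of the 31 cells, 5 passed the marker limit of another class, 3 that of T cells and 2 that of epidermal cells. None of the 31 carried a RAG1 or RAG2 UMI.

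**Figure D3:**
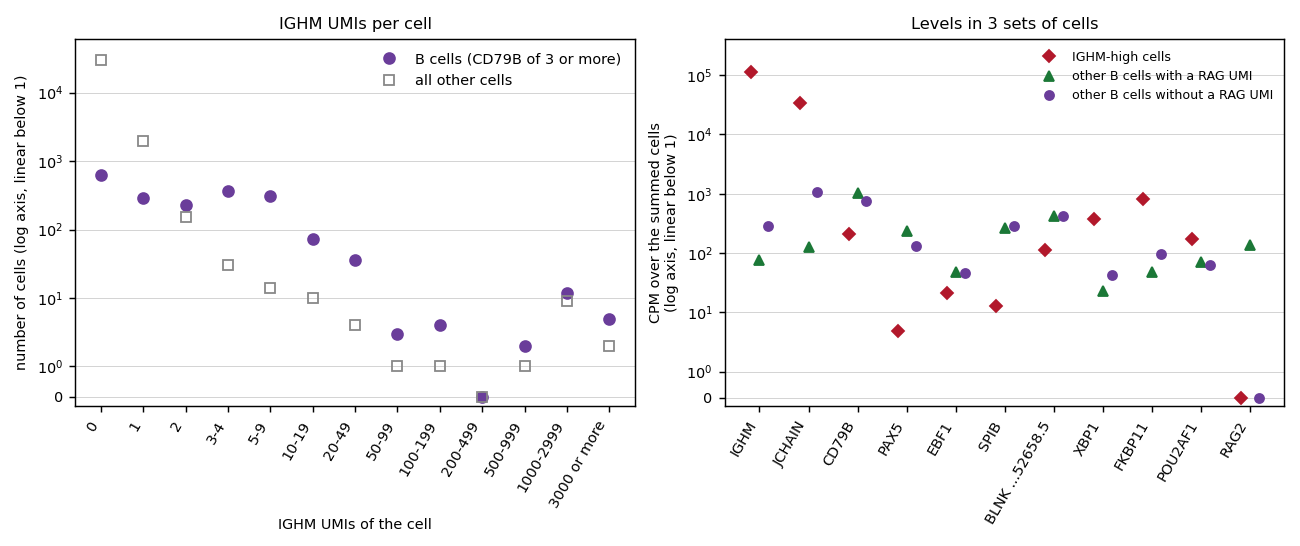
Left, number of cells (log axis, linear below 1) by IGHM UMIs per cell, for B cells and all other cells. Right, pooled CPM (log axis, linear below 1) of selected genes in IGHM-high cells and in other B cells with and without a RAG UMI. Not all IGHM-high cells passed the B cell limit. No cell lies between 200 and 499 IGHM UMIs, and PAX5 and SPIB are lower and JCHAIN and XBP1 higher in IGHM-high cells.

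IGHM-high cells, not all of which passed the B cell limit, differed from B cells outside that set in the remaining members. The values are pooled levels with no test because IGHM chose the cells. PAX5 was read at 4.86 CPM, from 3 UMIs, against 134 CPM in B cells that had neither very high IGHM nor a RAG UMI. SPIB stood at 13.0 against 283 CPM, the main BLNK model at 112 against 425 CPM, and EBF1 at 21.1 against 45.6 CPM. CD79B stood at 207 against 760 CPM, a difference that the B cell rule partly sets. The compared B cells all held at least 3 CD79B UMIs, whereas 11 IGHM-high cells held 1 or 2 and 1 held none. Several genes of secreting plasma cells were higher in IGHM-high cells. JCHAIN, which joins IgM into polymers, stood at 34488 against 1075 CPM. XBP1, a factor of the secretory response, stood at 377 against 43.1 CPM, and PRDM1, a repressor of the B cell programme, at 35.6 against 3.24 CPM. CXCR5, a chemokine receptor of follicular B cells, was lower, at 16.2 against 206 CPM.

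Without the IGHM-high cells, IGHM in B cells was 219, 250 and 283 CPM in intact 1, 2 and 4, and 194, 446, 298 and 251 CPM in contra 1, 2, 4 and 5. The spread narrowed and only contra 2 stood clear of the rest. T cells held 4.19 CPM of IGHM without the single IGHM-high T cell, against 25.4 CPM with it, and epidermal cells held 5.25 CPM.

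The first tests compared B cells with other leukocytes of the same samples, on UMIs summed per sample, with edgeR's quasi-likelihood test, the sample as a block and Benjamini-Hochberg adjustment over all models at 0.05. Against T cells, 8641 of 16198 models (53.3%) were called, and 26.3% of all tested models were higher in B cells. PAX5, EBF1, SPIB, BLK and the BLNK models had 10 to 182 UMIs each in all T cells and entered the test through B cells, so their direction could only be upward and their calls are given as a description. PAX5 was higher by 8.42 ± 0.15 (log2, SE), SPIB by 8.98 ± 0.12, the main BLNK model by 8.32 ± 0.12 and IGHM by 8.02 ± 0.72. EBF1, BLK and the minor BLNK model were higher by 6.44 ± 0.15, 6.09 ± 0.24 and 6.38 ± 0.33. Each model was higher in B cells of 7 of 7 samples.

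Against RTBDN-positive leukocytes, 49.9% of 7221 models were called, 26.2% higher in B cells and 23.7% lower. The members other than BLK had few UMIs in those leukocytes. PAX5, EBF1, SPIB and the main BLNK model had 1, 2, 3 and 11 UMIs in those leukocytes, so no direction is drawn from their tests. BLK was read in both classes, with 11.8 ± 2.15 CPM in B cells and 96.4 ± 19.3 CPM in RTBDN-positive leukocytes (SD, n = 7). This was a log2 difference of -2.93 ± 0.13 (edgeR adjusted p 2.14e-14), lower in B cells of 7 of 7 samples. The BLK values of the classes did not overlap, as in 20.6% of all models tested.

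Against macrophages, 65.7% of 7715 models were called and 32.8% were higher in B cells. PAX5 and EBF1 had 2 UMIs each in all macrophages and could only come out higher in B cells, whereas the main BLNK model and SPIB had 343 and 1280. The main BLNK model was higher by 2.98 ± 0.11 (log2, SE). SPIB passed narrowly, by 0.39 ± 0.13 with an edgeR adjusted p of 0.0152, and was higher in B cells of only 4 of 7 samples. That call was lost without intact 1, contra 2 or contra 4, with edgeR adjusted p-values of 0.0554, 0.0671 and 0.0616, and without the sample block, with 0.0514. BLK and the minor BLNK model were too sparse to be tested against macrophages.

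Other genes of the receptor cascade followed the members against T cells. Of 38 models on the signalling list, 29 could be tested and 27 were higher in B cells, beside 26.3% of all tested models, with a median of 1.87 (log2) beside -0.01 over all tested models. LYN, a Src kinase at the receptor, stood at 76.5 ± 7.29 CPM in B cells and 0.982 ± 0.272 CPM in T cells (SD, n = 7). Like the members, LYN had few UMIs in T cells, 111 outside the IGHM-high cell, and could only come out higher in B cells. The count of higher models includes such models and is given as a description. SYK was higher by 3.63 ± 0.13 (log2, SE), BTK by 3.57 ± 0.13 for its more abundant model, and the adaptor PIK3AP1 by 4.16 ± 0.14. BCL10 and MALT1, which carry the signal to NF-kappaB, were higher by 2.90 ± 0.07 and 2.66 ± 0.06. CD81, a partner of the coreceptor, and the more abundant VAV3 model were not called.

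Of 16 models of other B cell transcription factors, 15 were tested against T cells, 10 were higher and 2 lower, beside 26.3% and 27.0% of all tested models. MEF2C, at 8.29 ± 0.16 (log2, SE), and POU2AF1, the coactivator of octamer factors, at 7.21 ± 0.18, differed most. Outside the IGHM-high cell, T cells held 20 and 59 UMIs of them. Both entered the test through B cells and could only come out higher, so their calls and the counts that include them are a description. IKZF1 was lower by -1.42 ± 0.19, and 1 of the IRF4 models by -0.68 ± 0.15. All 3 tested surface genes were higher, CXCR5 at 202 ± 38.8 CPM in B cells and 0.430 ± 0.17 CPM in T cells (SD, n = 7). With 55 UMIs in T cells outside the IGHM-high cell, CXCR5 too could only come out higher. Against RTBDN-positive leukocytes, 13 of 23 tested signalling models were higher and 6 lower, beside 26.2% and 23.7% of all tested models. Against macrophages 12 of 22 were higher and 7 lower, beside 32.8% and 32.9%, so the share that was lower was near that of all models in both comparisons.

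The study's own comparison, contra against intact, was made first for the number of B cells. B cells were 9.68%, 8.69% and 4.13% of kept cells in intact 1, 2 and 4, and 7.57%, 3.90%, 3.27% and 2.17% in contra 1, 2, 4 and 5. Intact 4 lay below contra 1, so the groups overlapped, while contra was lower than intact within each of the 3 same-numbered pairs. Contra averaged 4.23 ± 2.34% and intact 7.50 ± 2.96% (SD, n = 4 and 3), a difference of -3.27 percentage points with a two-sided exact permutation p of 0.143, where 0.0286 is the smallest that 35 splits allow. Over the 3 pairs the difference was -2.59 points, with an exact sign-flip p of 0.25, the smallest they allow. With each sample left out in turn, the difference ran from -4.96 points without intact 4 (exact permutation p 0.0667) to -2.18 points without intact 1 (exact permutation p 0.333). As a share of cells that were not erythroid it was -7.07 points, from 6.92 ± 4.28% and 14.0 ± 7.29% (exact permutation p 0.2). Since the CD79B limit depends on depth, each cell was also thinned to 3000 UMIs before the limit was applied, which gave 2.13 ± 0.979% and 3.22 ± 1.14%, a difference of -1.09 points (exact permutation p 0.2).

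The share of B cells moved with the rest of the tissue. The samples with the highest shares, intact 1, intact 2 and contra 1, held 204, 150 and 263 epidermal cells, whereas intact 4 held 1477 and contra 2, 4 and 5 held 881, 1553 and 2603. The part of this in the B cell share was not tested.

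Within B cells, 0 of 10653 models passed the adjusted threshold between contra and intact, with edgeR as with DESeq2, and 208 and 121 had an unadjusted p under 0.05. None of the 7 member models other than CD79B was called, beside 0% of all models, and in none did the groups stand clear of each other, beside 2.21% of all models. PAX5 was 141 ± 14.9 CPM in contra and 149 ± 23.0 CPM in intact (SD), a log2 difference of -0.14 ± 0.18 (SE). SPIB differed by -0.06 ± 0.22, the main BLNK model by 0.03 ± 0.17, BLK by -0.25 ± 0.26 and the minor BLNK model by -0.11 ± 0.42. The edgeR adjusted p was 1.00 for each.

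The largest of these differences were in IGHM and EBF1, and neither passed. IGHM averaged 3792 ± 3765 CPM in contra and 1274 ± 1117 CPM in intact, a log2 difference of 1.5 ± 0.89 (SE), which ran from 0.97 without contra 2 to 2.33 without intact 2 and was 0.27 with the replicate number as a block. With the IGHM-high cells left out it was 0.16 ± 0.24, and the means were 297 ± 108 and 251 ± 31.9 CPM. Without the filter on low counts the same difference, 1.40, passed with an edgeR adjusted p of 0.00341. EBF1 was 51.6 ± 4.59 CPM in contra and 39.2 ± 10.5 CPM in intact, a log2 difference of 0.33 ± 0.19.

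Shares of B cells with a UMI, after each cell was thinned to 3000 UMIs, were tested for the 7 models, with p-values adjusted over them, and none passed. EBF1 was detected in 16.3 ± 1.96% of contra and 12 ± 3.95% of intact B cells, with a two-sided exact permutation p of 0.114 (adjusted 0.333). IGHM was detected in 46.1 ± 8.46% and 36.2 ± 3.70%, with the same exact permutation p-values. PAX5 was detected in 33.5 ± 5.78% of contra and 34.9 ± 4.51% of intact B cells, and BLK in 2.59 ± 0.703% and 3.73 ± 1.06%. Without thinning, EBF1 was detected in 41.4 ± 4.51% and 40.8 ± 14.3%, IGHM in 70.0 ± 8.16% and 68.0 ± 5.32%, PAX5 in 70.7 ± 4.71% and 78.6 ± 6.42%, and BLK in 11.6 ± 2.24% and 16 ± 4.31%. Median depth of B cells averaged 10470 ± 1812 UMIs over contra and 13228 ± 2714 over intact samples (SD, two-sided exact permutation p 0.171). The groups overlapped, since contra 1 and 2, at 12209 and 11498 UMIs, lay above intact 4 at 10992. The part of depth in these shares was not tested.

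**Figure D4:**
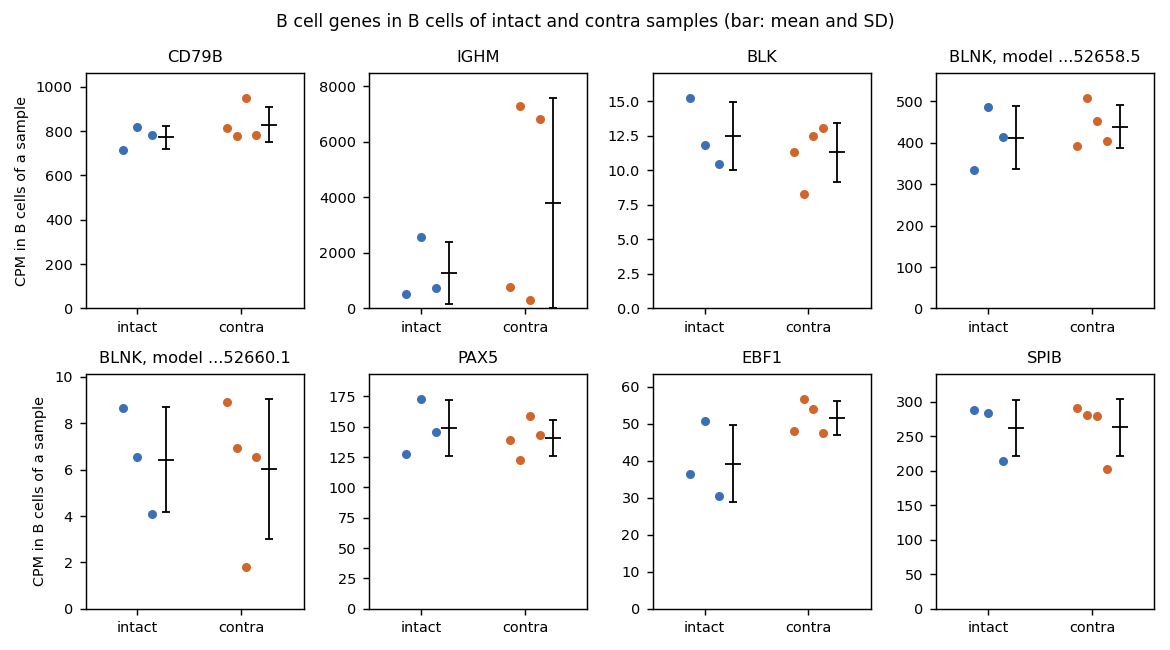
Level of each member in B cells (CPM) in intact and contra samples, with 1 point per sample and the mean and SD of each group as bars. The groups overlap for every member, and IGHM spreads from 298 to 7282 CPM.

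Over all kept cells, the level of a member combines how many cells carry it with how much each holds, which the comparisons above give separately for B cells. No model of 32720 passed with edgeR (842 with an unadjusted p under 0.05), while DESeq2 called 14, and the groups stood clear of each other in 1.75% of models. PAX5 was 7.85, 10.4 and 4.19 CPM in intact 1, 2 and 4 and 7.01, 3.09, 3.19 and 2.61 CPM in contra 1, 2, 4 and 5. Contra 1 lay inside the intact range and the other contra samples below it, and contra was lower within each of the 3 same-numbered pairs. The log2 difference was -1.02 ± 0.54 (SE, edgeR adjusted p 0.976), and -0.78 ± 0.34 with the replicate number as a block (adjusted p 0.731).

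BLK was the member whose groups did not overlap over all kept cells. It was 1.43, 1.57 and 1.64 CPM in the intact samples and 1.29, 0.732, 0.832 and 0.973 CPM in contra 1, 2, 4 and 5. Every contra sample lay below every intact sample, by a log2 difference of -0.79 ± 0.30 (SE) with an unadjusted p of 0.0301 and an edgeR adjusted p of 0.976. Within RTBDN-positive leukocytes alone, where 1 of 5262 models (0.0190%) was called, BLK differed by -0.38 ± 0.22 (adjusted p 0.993) and its groups overlapped, while 4.81% of models did not. With the replicate number as a block, 0 models were called there. CD79B differed over all kept cells by -0.90 ± 0.62, SPIB by -0.84 ± 0.52, EBF1 by -0.39 ± 0.41, the minor BLNK model by -0.87 ± 0.70 and the main BLNK model by -0.28 ± 0.17. IGHM differed by 0.01 ± 0.62, and by -0.70 ± 0.41 with the IGHM-high cells left out.

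The non-B cells that carried members were compared in the same way. In the epidermis the main BLNK model was 38.6 ± 5.56 CPM in contra and 40.4 ± 3.11 CPM in intact, a log2 difference of -0.06 ± 0.13, and its groups overlapped. There, 0 of 20960 models passed with edgeR (1735 with an unadjusted p under 0.05), and the groups of 9.75% of models did not overlap. With the replicate number as a block 35 models passed, the BLNK model not among them, and with DESeq2 52 passed. In macrophages SPIB differed by -0.39 ± 0.23 and the main BLNK model by 0.36 ± 0.26, where 0 of 6778 models passed with edgeR (220 with an unadjusted p under 0.05) and 1 with DESeq2. The minor BLNK model was lower in macrophages of all contra samples, at 2.83 ± 1.03 against 8.20 ± 1.51 CPM, from 29 UMIs in all and too few to be tested. The groups of 4.56% of the tested macrophage models did not overlap.

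The other lists gave no call between contra and intact in B cells or in all kept cells. In B cells the median log2 difference was 0.08 over 27 tested signalling models and -0.07 over 14 tested transcription factors, beside -0.01 over all tested models. Over all kept cells the medians were -0.27 over 33 signalling models and -0.36 over 16 transcription factors, beside -0.02 over all tested models.

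B cells also split by the recombinase genes RAG1 and RAG2, which cut immunoglobulin genes in developing lymphocytes. At least 1 UMI of these genes was found in 294 B cells, which held 184 RAG1 and 564 RAG2 UMIs, against 1 and 20 in all T cells. They made up 18.7%, 13.5% and 8.79% of B cells in intact 1, 2 and 4 and 18.4%, 7.69%, 18.2% and 8.26% in contra 1, 2, 4 and 5. The groups overlapped, with 13.1 ± 5.95% in contra and 13.7 ± 4.97% in intact (SD, two-sided exact permutation p 0.771). The split was made after the values had been seen, and what follows is a description with no test.

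IGHM was lower in RAG-positive B cells of 7 of 7 samples, at 98.7 ± 41.8 CPM against 305 ± 83.5 CPM in RAG-negative B cells (SD, n = 7). In cells thinned to 3000 UMIs it was detected in 18.1% and 44.8%, again lower in 7 of 7 samples. PAX5 was higher in 7 of 7 samples, at 230 ± 57.9 against 135 ± 19.0 CPM, although contra 5 stood at 155 CPM in both sets. CD79B was higher in 7 of 7, at 1084 ± 124 against 781 ± 72.9 CPM. In thinned cells PAX5 was detected in 45.3% and 32.9%, higher in 6 of 7 samples, and CD79B was higher in 5 of 7. EBF1, at 51.4 ± 32.5 against 46.5 ± 9.23 CPM, was higher in 4 of 7. SPIB was lower in 6 of 7 samples, at 241 ± 38.2 against 272 ± 38.9 CPM, and the minor BLNK model in 7 of 7, at 1.87 ± 2.29 against 7.09 ± 2.96 CPM.

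The share of B cells with an IGHM UMI was lower the more RAG UMIs a cell held, from 73.4% with none to 50% with 1, 28.3% with 2 and 17.0% with 3 or more, while the share with PAX5 went from 73.9% to 82.0%, 86.7% and 93.4%. Median depth was 12338, 12571, 12250 and 12870 UMIs in those bins. Some other genes of B cell development and response differed too, in pooled levels and not all in 1 direction. FOXO1, which drives RAG genes in mouse, stood at 166 CPM in RAG-positive and 30.4 CPM in RAG-negative B cells, and the light chain model IGL@ at 16.3 and 0.569 CPM. VPREB1, listed here as a gene of B cell precursors, went the other way. It stood at 0.740 CPM (3 UMIs) in RAG-positive and 2.89 CPM (66 UMIs) in RAG-negative B cells. JCHAIN stood at 125 and 1075 CPM, from UMIs in 3.4% and 11.2% of the cells.

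**Figure D5:**
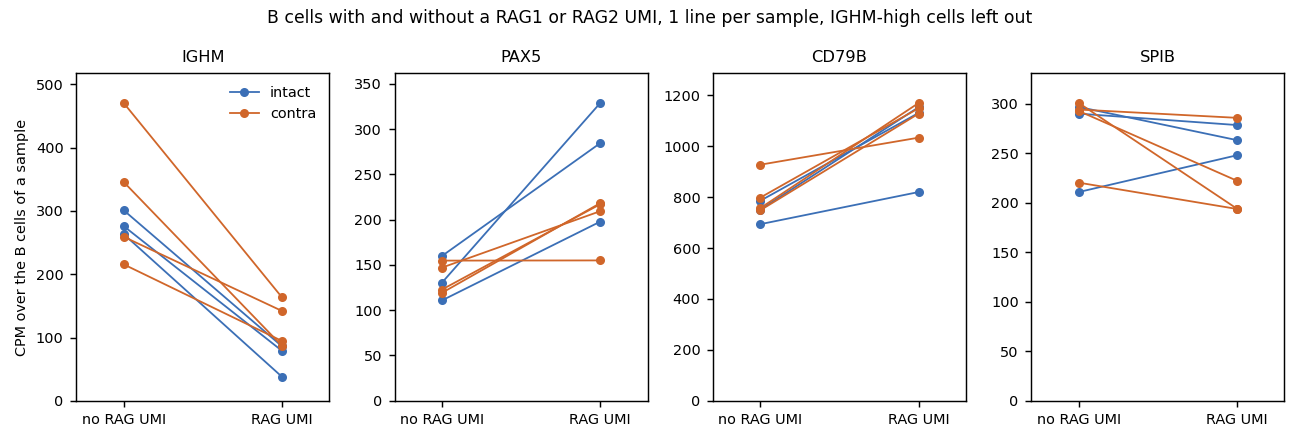
IGHM, PAX5, CD79B and SPIB in B cells without and with a RAG1 or RAG2 UMI (CPM), with 1 line per sample coloured by group and the IGHM-high cells left out. IGHM is lower and CD79B higher in RAG-positive B cells of all 7 samples, and PAX5 is higher except in contra 5, where both values are 155 CPM.

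The genes most like each member were ranked by Pearson r of log2(CPM + 1) over 51 sums of 8 cell classes and 7 samples, among 17869 models, as a description; the sums share libraries and depth. Of the 5 models nearest to each member, some of those with a gene symbol are given here. CD79B had CXCR5 (r 0.961), and PAX5 had CLEC4G (0.972) and RFTN2 (0.969). EBF1 had PAX5 (0.941) and WASF3 (0.940), and IGHM had PAX5 (0.918). SPIB had NCF4 (0.981), a subunit of the phagocyte oxidase, and CD180 (0.928), a receptor of the Toll-like family. The minor BLNK model had NCF1 and the proton channel HVCN1 (both 0.944), MARCHF1 and CD180 (both 0.936), and the main model TLR1 (0.897), PTPRH (0.875) and LY86 (0.872). BLK had CD300A (0.874) and ANXA6 (0.873).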

How the data were processed

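Gene counts per cell, as the authors deposited them, are UMI counts of 3′ transcript ends with no normalization; the submitters' processing notes name kallisto 0.48.0 and Seurat 4.2.0 without a role, and no source used here gives a genome build. The 3 intact and 4 contra samples with cells were analysed; 1 labelled intact sample was not analysed here. The lowest depth was 3003 UMIs in a cell, and 95% intervals cover counting error only.

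Cells scoring above 0.25 in Scrublet (scanpy 1.11.5), run on every sample separately, were removed as doublets. This score was set after the scores had been seen, since the automatic limit marked 0.0229% to 1.59% of a sample. B cells held at least 3 CD79B UMIs. Other classes were set by summed marker UMIs, at limits chosen after marker counts had been seen: 5 for T cells, 20 for GZMA-high cells, 10 for RTBDN-positive leukocytes and macrophages, 4 for neutrophils, 6 for mast cells, 100 for epidermal cells and fibroblasts, 8 for endothelial cells, 50 for skeletal muscle and 10% haemoglobin UMIs for erythroid cells. Cells past 2 limits were put in no single class unless they were B cells.

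Counts were summed per sample and class of at least 20 cells. CPM is the count per 1000000 UMIs of the sum. Contra and intact were compared with edgeR 4.0.16 (TMM, filterByExpr, quasi-likelihood) in R 4.3.3, with Benjamini-Hochberg adjustment at 0.05 over all models tested, and with DESeq2 1.42.0 as an alternative. Both were also run on simulated counts, drawn with the same dispersion for every model and without pairing of samples. That run does not measure how well they perform on these data. Each SE given with an edgeR log2 difference was back-calculated, as the absolute difference divided by the square root of the test's F statistic. Shares were compared by two-sided exact permutation in scipy 1.17.1 after thinning to 3000 UMIs. CD79B chose the B cells, so its values are a description.

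Other listed models are named where they passed the test in the comparison described, and otherwise by their UMIs in B cells; likeness names the 5 nearest models of another symbol among those with at least 500 UMIs. The members and lists were chosen with earlier results of these data known. The comparisons in the epidermis, macrophages and RTBDN-positive leukocytes of contra and intact samples, the IGHM-high limit and the RAG split were added after seeing the data.

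Samples share replicate numbers across groups in their titles. Over all kept cells, deviations of same-numbered samples correlated at 0.551, 0.404 and 0.492 over 32229 models, although intact 4 and contra 5, of different numbers, correlated at 0.561. The numbers were used to pair samples only in alternative settings, and the main tests of contra against intact left samples unpaired. In B cells the same pairs correlated at 0.353, 0.390 and 0.0211. Some results on other genes are not reported here.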

Additional observations from a re-analysis of the deposited data

Results flagged for a closer look

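In 3 of 37 groups of 4 samples examined, a single sample lay farther from the others than the Dixon limit for 95% confidence allows, where chance gives about 1 in 20 groups. PAX5 over all kept cells was 7.01 CPM in contra 1, against 2.61 to 3.19 CPM in the other contra samples. That sample also held the highest share of B cells in its group, 7.57%. The main BLNK model over all kept cells was 32.3 CPM in contra 5, against 23.6 to 24.4 CPM. Contra 5 also held the most epidermal cells, 2603, a class that carries BLNK. SPIB in B cells was 202 CPM in contra 5, below the 280 to 291 CPM of the other contra samples; contra 5 had the fewest B cells, 121, and their lowest median depth, 8100 UMIs.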

How the results depend on the processing

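Settings outside those of the main tests, and the comparisons in epidermal cells, RTBDN-positive leukocytes and macrophages with their alternatives, were partly chosen after seeing the data. Between B cells and T cells, 15 alternatives called 6749 to 10439 models, and IGHM differed by 6.21 to 8.78 on the log2 scale. Without the low-count filter, edgeR called 210 models between contra and intact in B cells (168 higher, 42 lower), 341 in the epidermis, 33 in RTBDN-positive leukocytes, 51 in macrophages, 5912 between B cells and RTBDN-positive leukocytes and 8121 between B cells and macrophages. DESeq2 called 14 models between contra and intact over all kept cells, 52 in the epidermis, 4 in RTBDN-positive leukocytes and 1 in macrophages. With a replicate block, 0 models were called in B cells, over all kept cells and in RTBDN-positive leukocytes, and 35 in the epidermis. The causes were not tested.

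Leaving out each sample in turn gave 0 to 2 models in B cells (2 without intact 2), 0 to 2 in macrophages (2 without contra 1) and 0 to 6 in RTBDN-positive leukocytes (6 without contra 1, 3 without intact 2, 2 without contra 4, and 0 without intact 1, contra 2 or contra 5). In B cells the log2 difference between contra and intact then ran from -0.41 to 0.042 for BLK, -0.027 to 0.10 for the main BLNK model, -0.56 to 0.27 for the minor BLNK model, -0.19 to 0.11 for SPIB, 0.20 to 0.44 for EBF1 and 0.97 to 2.33 for IGHM, and over all kept cells from -0.45 to 0.99 for IGHM. The shares of thinned B cells ran from -4.11 to 0.604 points for PAX5, -1.75 to 3.28 for the main BLNK model, -0.0832 to 1.02 for the minor one and -3.67 to 3.80 for SPIB. None of these member differences passed a threshold.

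Other changes of sign were all in differences that did not pass. The main BLNK model turned to -0.032 in B cells and 0.014 in the epidermis without the low-count filter. SPIB in B cells turned to 0.087 with the replicate block and to 0.018 without B cells of another class, and IGHM over all kept cells to -0.70 without IGHM-high cells. Without thinning, the share differences turned to -0.976 points for the main BLNK model, -1.27 for the minor one and -3.46 for SPIB. EBF1, BLK and the minor BLNK model were the members read most sparsely, with no UMI in 57.3%, 85.0% and 91.7% of B cells. The part of depth in this was not tested.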
